A study of Mus musculus with 12 samples.

Results

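Fibronectin (Fn1), periostin (Postn), tenascin C (Tnc), SPARC (Sparc), the thrombospondins Thbs1, Thbs2 and Thbs3, Cthrc1 and tenascin N (Tnn) were followed across paraspinal tissue of unoperated mice and mice after spinal surgery. These 9 genes were taken by symbol from the 18996 genes of the count table, and all 9 were among the 14765 genes that passed the filter on low counts. Bulk RNA sequencing was available for 12 BALB/c mice, 4 in each of 3 groups. The No operation group was unoperated and its sample was paraspinal soft tissue. In the SHAM group, paraspinal soft tissue had been removed and the lamina left in place, and in the Laminectomy group the lamina had been excised as well, which exposes the dura. Samples of both operated groups were labelled paraspinal soft and scar tissue and, per the study, were taken on day 7 after surgery. The mice used were 5 to 7 weeks old. The 2 surgeries share the same No operation mice as controls, so that their differences from No operation are not independent of each other.

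The proteins of these genes are secreted into the extracellular matrix. Fibronectin is assembled by integrins into fibrils of the provisional matrix of a wound, on which collagens are then deposited. Periostin, the tenascins, the thrombospondins and SPARC are matricellular proteins: they bind collagens, fibronectin, growth factors and cell surface receptors more than they bear load, and several are known for low levels in resting adult tissue and high levels in healing wounds and scars. Cthrc1 is a secreted glycoprotein of activated fibroblasts and injured arteries.

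Of the 9 genes, 7 rose in SHAM and 6 in Laminectomy relative to No operation, and none fell. Fn1, Postn, Tnc, Sparc, Cthrc1 and Tnn rose in both operated groups, and in each of these 6 genes the lowest operated mouse stood above the highest No operation mouse. Thbs3 rose in SHAM but not past the threshold in Laminectomy, and Thbs1 and Thbs2 passed in neither. A gene was called a differentially expressed gene (DEG) where the quasi-likelihood test of edgeR gave a p under 0.05 after Benjamini-Hochberg adjustment over all genes tested and the log2 fold change exceeded 0.5 in size. Many genes passed this test: 25.7% of all genes tested were called higher and 25.1% lower in SHAM, and 24.2% higher and 24.4% lower in Laminectomy. The median log2 fold change of the 9 genes was 1.43 in SHAM and 1.83 in Laminectomy, beside medians of 0.00 and 0.01 over all genes tested. Non-overlapping groups were also common, at 26.7% of genes higher and 27.8% lower in SHAM and at 27% higher and 29.0% lower in Laminectomy. With No operation mouse 1 and SHAM mouse 1 left out together, an alternative chosen after seeing the data, 7 of the 9 were called in each comparison.

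The tissue itself differed between the groups, in the direction of fewer muscle fibre transcripts after surgery. All 8 skeletal muscle fibre markers were lower in both operated groups, with summed levels of 75790 to 114900 CPM (counts scaled to a common library size) in No operation, 1991 to 8098 in SHAM and 2729 to 11290 in Laminectomy. The 7 fibroblast markers summed to 8433 to 26330 CPM in No operation, 54240 to 75980 in SHAM and 49970 to 63280 in Laminectomy, and the 5 macrophage markers to 567.7 to 1591, 3997 to 6909 and 2947 to 4923. The collagens Col1a1, Col1a2 and Col3a1 made up most of the fibroblast sum: of the 7 markers, 6 were called higher in SHAM and 5 in Laminectomy, Dcn (decorin) was called lower in both, at mean levels of 3288, 1711 and 991 CPM, and Pdgfra was not called in Laminectomy. In bulk tissue, a change in the number of cells of a type and a change in the RNA that each cell holds cannot be told apart, and the part of this shift in the results below was not tested. The labelled soft tissue of No operation was thus rich in muscle fibre transcripts. The osteoblast markers summed to 662 to 1840 CPM in the 4 Laminectomy mice, against 26 to 498 in No operation and 28 to 150 in SHAM. Ibsp, at a mean of 987 CPM, made up most of the Laminectomy sum, while the mean of Bglap was 33.6 CPM beside 37.8 in No operation. Of the 5 markers 1 was called higher in Laminectomy, which is not above the 24.2% of all genes tested. The neural gene Snap25 was at 63.1 and 23.7 CPM in Laminectomy mice 2 and 3 and at or below 0.133 CPM in the other mice. Library totals were similar, at 16802989 to 18077868 counts.

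The upstream sequence of 4 of the genes is shown for comparison with their different responses: Postn and Tnn had some of the largest fold changes, Tnc had the smallest adjusted p of the 9 against No operation in Laminectomy, and Thbs2 passed the test in neither comparison. Each run holds the 170 bases just before the start site that RefSeq gives on GRCm38, read 5′ to 3′ on the gene's strand. The reference is a C57BL/6J genome, whereas the mice were BALB/c. Capitals mark the letters TATAAA (forward strand) in Postn and Tnc, and the TEAD motif GGAATG in Tnn. The Postn window was chr3:54360937-54361106 on the plus strand, Tnc chr4:64047016-64047185, Tnn chr1:160153576-160153745 and Thbs2 chr17:14694263-14694432, the last 3 on the minus strand.
Postn: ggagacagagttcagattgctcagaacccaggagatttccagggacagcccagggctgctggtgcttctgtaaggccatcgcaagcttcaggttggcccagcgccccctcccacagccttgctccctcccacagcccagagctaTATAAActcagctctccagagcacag
Tnc: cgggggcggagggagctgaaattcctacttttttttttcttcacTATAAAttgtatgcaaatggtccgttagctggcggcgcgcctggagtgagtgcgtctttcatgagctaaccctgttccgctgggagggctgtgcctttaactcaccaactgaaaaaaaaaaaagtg
Tnn: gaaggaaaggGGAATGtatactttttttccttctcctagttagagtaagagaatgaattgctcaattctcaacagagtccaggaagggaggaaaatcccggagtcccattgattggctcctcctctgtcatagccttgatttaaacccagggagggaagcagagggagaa
Thbs2: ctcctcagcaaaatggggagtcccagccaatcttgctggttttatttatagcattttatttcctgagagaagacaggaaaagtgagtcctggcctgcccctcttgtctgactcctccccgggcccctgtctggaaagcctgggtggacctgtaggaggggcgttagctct
Postn carries TATAAA at 26 bases before its start and Tnc at 126 bases before. TATAAA was found in 7.59% of the 32851 promoters, each searched over the 250 bases before the start. GGAATG, 160 bases before the start of Tnn, was found on either strand in 12.6% of them. An AP-1 motif (TGANTCA, 6.75% of promoters) and a RUNX motif (TGTGGT, 14.0%), searched on both strands, were in none of the 6 windows that could be matched, those of Postn, Tnc, Sparc, Thbs2, Thbs3 and Tnn. The windows of Sparc, which was called in both operated groups, and of Thbs2 and Thbs3 held none of these motifs. Motifs and responses were not tested against each other. A match describes letters and no more, and no match says only that these letters are not in this window.

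Fibronectin is an adhesion protein of the matrix that cells bind through integrins. Fn1 (gene 14268, chr1:71585520-71653200, minus strand) had 2295, 989.6, 1352 and 793 CPM in the 4 No operation mice (numbered 1 to 4, here and below in that order), 4253, 2628, 3486 and 4286 CPM in the SHAM mice and 6984, 5517, 4590 and 3097 CPM in the Laminectomy mice. Every operated mouse stood above every No operation mouse, and the Laminectomy mice held both the highest value and one inside the SHAM range. The log2 fold change against No operation was 1.43 ± 0.35 in SHAM (SE, adjusted p = 0.00413, edgeR) and 1.89 ± 0.36 in Laminectomy (adjusted p = 0.000854). Between the 2 operated groups it was 0.46 ± 0.35, with an adjusted p of 0.534. The means were 1357 ± 667, 3663 ± 783 and 5047 ± 1631 CPM (SD, n = 4 in each).

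SPARC binds collagen as it leaves the cell and takes part in its assembly into fibrils. Sparc (gene 20692, chr11:55394500-55423183, minus strand) was at 3032, 4155, 2867 and 1726 CPM in No operation, at 7656, 8231, 6649 and 5587 in SHAM and at 6520, 6837, 5899 and 6104 in Laminectomy. The 8 operated mice stood above the 4 unoperated ones, and the Laminectomy mice lay within the SHAM range. Its log2 fold change against No operation was 1.26 ± 0.25 in SHAM (adjusted p = 0.00111, edgeR) and 1.11 ± 0.25 in Laminectomy (adjusted p = 0.00262), and -0.15 ± 0.25 between the operated groups (adjusted p = 0.791). Per kilobase of exon Sparc was the highest of the 9 genes in all groups, at 777 ± 262, 1856 ± 307 and 1674 ± 111 CPM/kb, and it ranked 39 in No operation and 6 in both operated groups among 18331 genes with a length.

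Periostin binds collagen and fibronectin and promotes collagen cross-linking. Postn (gene 50706, chr3:54361109-54391037, plus strand) was at 2053, 329.7, 189 and 99.6 CPM in No operation, at 3175, 3828, 4422 and 4355 in SHAM and at 4098, 4590, 5751 and 4687 in Laminectomy. No operation mouse 1 stood far above the other 3 of its group but below every operated mouse, and the operated groups overlapped. The log2 fold change against No operation was 2.56 ± 0.76 in SHAM (adjusted p = 0.0123, edgeR) and 2.84 ± 0.77 in Laminectomy (adjusted p = 0.00798). Without No operation mouse 1 these became 4.26 and 4.54. With all mice kept, limma-voom gave 3.54 and 3.82, and a replicate block in edgeR gave 3.32 and 3.57. DESeq2 returned no p-value for this gene. In rank by CPM/kb Postn went from 591 in No operation to 52 in SHAM and 37 in Laminectomy.

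Cthrc1 repeated the spread of Postn at a lower level. Cthrc1 (gene 68588, chr15:39076932-39087121, plus strand) was at 139.5, 18.4, 11.99 and 4.28 CPM in No operation, at 275.9, 348.5, 277 and 197 in SHAM and at 237, 231, 287 and 248 in Laminectomy. Again No operation mouse 1 was the highest of its group and the Laminectomy mice lay within the SHAM range. Log2 fold changes against No operation were 2.66 ± 0.82 in SHAM (adjusted p = 0.0148, edgeR) and 2.53 ± 0.82 in Laminectomy (adjusted p = 0.0194), and 4.57 and 4.43 without No operation mouse 1. With all mice kept, limma-voom gave 3.82 and 3.71, and the replicate block 3.53 and 3.47. The mean level per length was 27.3 ± 40.3 CPM/kb in No operation, 172 ± 38.7 in SHAM and 157 ± 15.7 in Laminectomy.

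The tenascins are large oligomeric glycoproteins that modulate cell adhesion to fibronectin. Tnc (gene 21923, chr4:63959785-64047015, minus strand) was at 472, 367, 495 and 144 CPM in No operation, at 1229, 831, 1401 and 1123 in SHAM and at 1642, 1251, 1241 and 1110 in Laminectomy. The lowest operated mouse, SHAM mouse 2, was above the highest No operation mouse, and the operated groups overlapped. Its log2 fold change was 1.63 ± 0.33 in SHAM (adjusted p = 0.00122, edgeR) and 1.83 ± 0.33 in Laminectomy (adjusted p = 0.00068) against No operation, and 0.19 ± 0.32 between the operated groups (adjusted p = 0.792).

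Tnn, which encodes tenascin N (also called tenascin W), was the least abundant per length in No operation and had the largest fitted rise in Laminectomy. Tnn (gene 329278, chr1:160085029-160153580, minus strand) was at 76.3, 47.2, 21.0 and 0.28 CPM in No operation, the last from 4 counts, at 145, 167, 194 and 299 in SHAM and at 712, 410.4, 346 and 319 in Laminectomy. The 3 groups did not overlap, and SHAM mouse 4 and Laminectomy mouse 4 stood on either side of a narrow gap. Against No operation the log2 fold change was 2.48 ± 0.88 in SHAM (adjusted p = 0.0292, edgeR) and 3.63 ± 0.93 in Laminectomy (adjusted p = 0.00561). The SHAM call was lost without No operation mouse 3 (adjusted p = 0.0767), without SHAM mouse 4 (0.0652) and with only the 2 groups compared in the fit (0.0579). Without No operation mouse 1, the highest of its group, the log2 fold changes were 3.14 and 4.29. With all mice kept, limma-voom gave 3.90 and 5.03.

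The comparison of Laminectomy with SHAM asks what excision of the lamina adds to soft tissue surgery, and none of the 9 genes was called between Laminectomy and SHAM. Tnn was highest in its difference, at 1.15 ± 0.84 log2 (adjusted p = 0.528, edgeR; unadjusted p = 0.199), and the only one of the 9 whose groups did not overlap, with an exact permutation p of 0.0286, the smallest that 4 against 4 mice allow. Groups that did not overlap were found in 5.06% of all genes tested on the higher side and in 5.07% on the lower side. Beyond these 9, edgeR's test called 0.0% of all genes in this comparison. At an unadjusted p below 0.05 it held 2360 genes, 16.0% of those tested, none of them among the 9. DESeq2 called 601 genes, with none among the 8 of the 9 for which it returned a p-value, and limma-voom called 0. The osteoblast markers were apart between the operated groups in all 5 genes and their part in the Tnn difference was not tested.

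**Figure D1:**
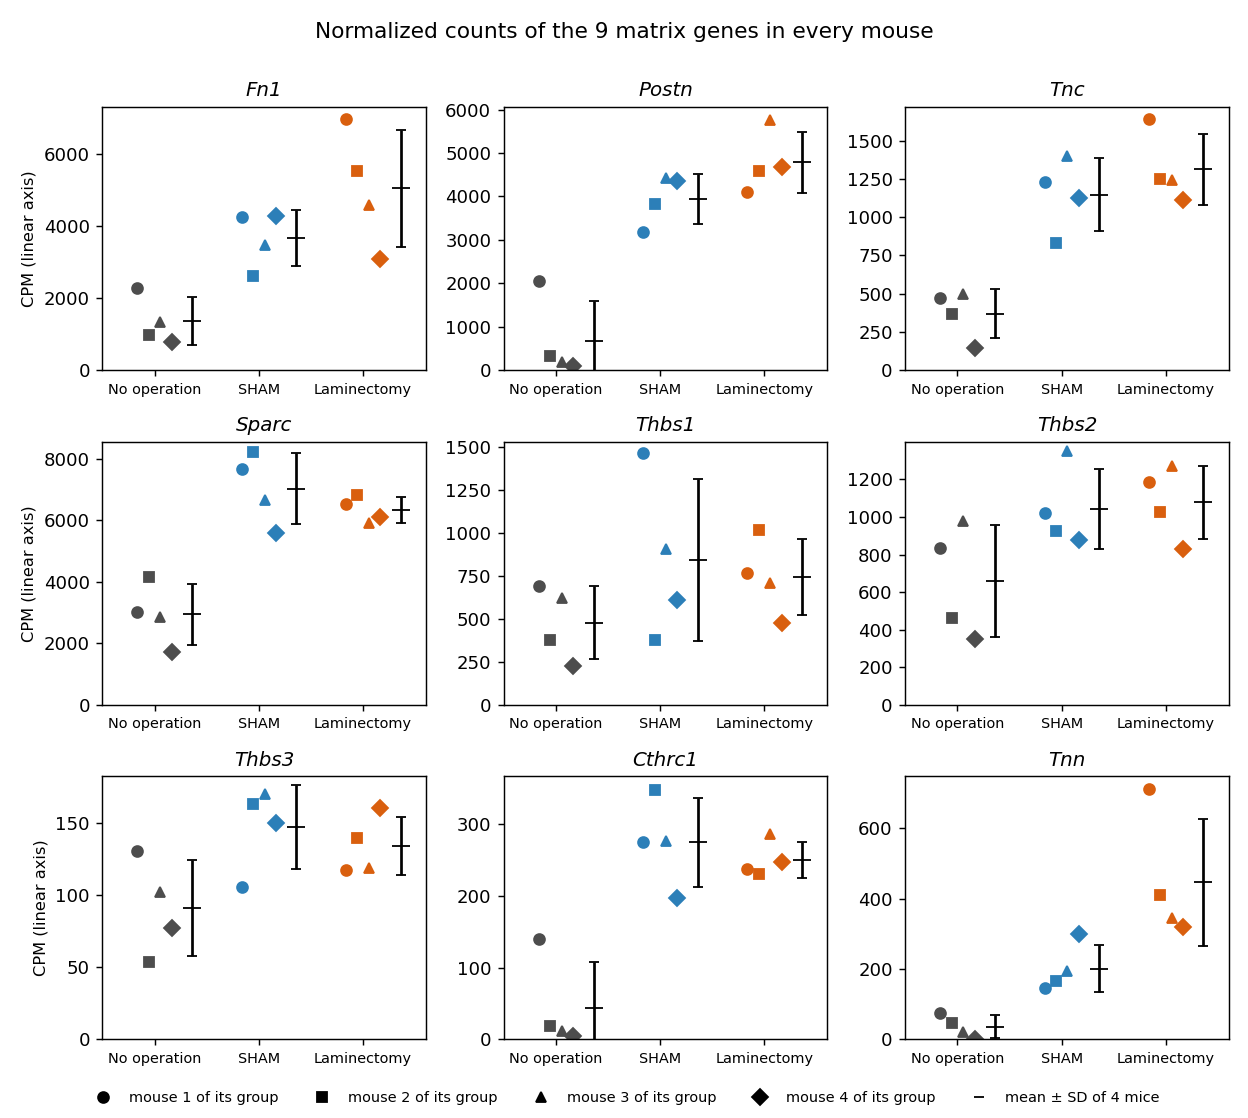
CPM of the 9 genes on linear axes from 0, 1 panel per gene, with 1 symbol per mouse and a bar for the mean ± SD of 4 mice (the lower arm is clipped at 0 for Postn and Cthrc1). Operated mice of Fn1, Postn, Tnc, Sparc, Cthrc1 and Tnn lie above all No operation mice, and No operation mouse 1 stands at 2053 CPM of Postn and 139.5 CPM of Cthrc1.

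Thrombospondins bind integrins, CD47 and CD36, and thrombospondin 1 can release latent TGF-β. Thbs1 (gene 21825, chr2:118111876-118127133, plus strand) was at 689.5, 379.8, 619 and 226 CPM in No operation, at 1468, 379, 906 and 609.7 in SHAM and at 766, 1019, 711 and 477.5 in Laminectomy. SHAM mouse 1 was the highest of the 12, and its marker sums were the highest for fibroblasts (75980 CPM), macrophages (6909 CPM), platelets (571 CPM, next 277 in SHAM mouse 4) and keratinocytes (91.8 CPM, next 72.3 in SHAM mouse 3 and at most 7.76 in the other mice), whose part in its Thbs1 level was not tested. Its platelet sum was nearly all Pf4 (458 CPM) and Ppbp (105.5 CPM), while Itga2b (5.45 CPM) and Gp1bb (1.97 CPM) were the lowest of the SHAM group. SHAM mouse 2 fell at the level of No operation mouse 2, so that the groups overlapped. The log2 fold change was 0.81 ± 0.43 in SHAM (adjusted p = 0.123, edgeR) and 0.64 ± 0.43 in Laminectomy (adjusted p = 0.225). Without SHAM mouse 1 the SHAM difference was 0.41 (adjusted p = 0.407), and without SHAM mouse 2 it was 1.06 and passed (adjusted p = 0.0466), as it did under scaling by library totals (1.05, adjusted p = 0.0433).

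Thbs2, of the same trimeric subgroup as Thbs1, is known to restrain matrix metalloproteinase 2. Thbs2 (gene 21826, chr17:14665500-14694235, minus strand) was at 837, 464, 981 and 351 CPM in No operation, at 1021, 928, 1350 and 877 in SHAM and at 1187, 1027, 1270 and 829.7 in Laminectomy. No operation mice 1 and 3 lay within the range of the operated mice, and mice 2 and 4 lay below. The log2 fold change was 0.67 ± 0.30 in SHAM (adjusted p = 0.0728, edgeR) and 0.71 ± 0.30 in Laminectomy (adjusted p = 0.0588). It passed the threshold in both comparisons with DESeq2 (adjusted p = 0.0408 and 0.0274) and limma-voom (0.0459 and 0.0376). In edgeR's test it also passed without No operation mouse 3 (0.0214 in SHAM and 0.0178 in Laminectomy), and in Laminectomy without No operation mouse 1 (0.0451).

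Thbs3 belongs to the pentameric subgroup with Thbs4 and Comp, which are known from tendon, cartilage and muscle. Thbs3 (gene 21827, chr3:89215180-89226837, plus strand) was at 131, 53.3, 102 and 77.5 CPM in No operation, at 105.5, 163, 170.4 and 150.0 in SHAM and at 118, 139.8, 119 and 161 in Laminectomy. SHAM mouse 1 and 2 Laminectomy mice lay below No operation mouse 1. The log2 fold change of 0.70 ± 0.25 in SHAM was called (adjusted p = 0.0285, edgeR) and that of 0.56 ± 0.25 in Laminectomy was not (adjusted p = 0.068). The SHAM call was lost on leaving out No operation mouse 2 (adjusted p = 0.0574) or 4 (0.071), or SHAM mouse 2 (0.0643), 3 (0.0692) or 4 (0.0537), and with only the 2 groups compared (0.053). In Laminectomy the gene passed without No operation mouse 1 (0.0138) or SHAM mouse 1 (0.0493), and with DESeq2 (0.0426), limma-voom (0.048), upper quartile scaling (0.0238) and scaling by library totals (0.00764). Of its exon bases, 6.59% overlap Mtx1 on the opposite strand.

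**Figure D2:**
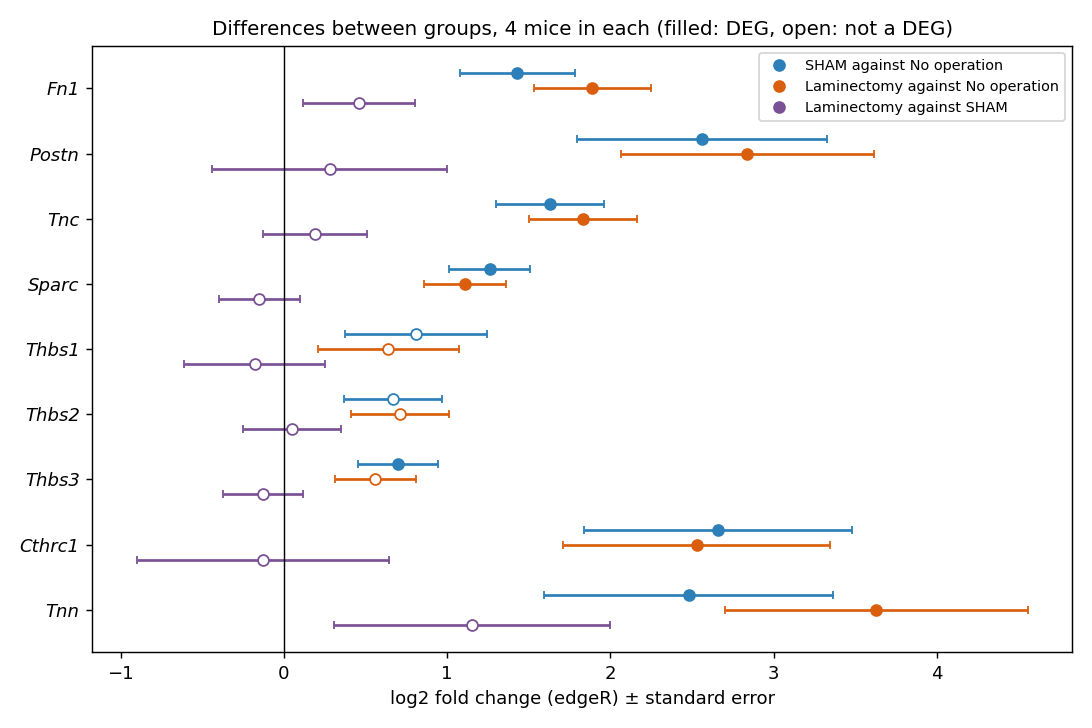
Log2 fold changes of the 9 genes from edgeR, with standard errors, for SHAM and Laminectomy against No operation and for Laminectomy against SHAM (4 mice per group, filled points for genes called). Every point against No operation is above 0, from 0.56 for Thbs3 to 3.63 for Tnn in Laminectomy, and no point of the comparison between operated groups is filled.

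The genes were also set against the rest of their families, the thrombospondins and the tenascins. Shares were computed within each mouse from CPM/kb, so that they do not depend on how libraries are scaled. No difference in share passed its test after adjustment, which so few mice could hardly pass. Among the tenascins, Tnxb, the tenascin X of connective tissue, made up 58.95% ± 14.1 (SD, n = 4) in No operation, 12.7% ± 3.32 in SHAM and 3.66% ± 2.36 in Laminectomy. Tnc went from 36.4% ± 10.7 to 70.4% ± 4.13 and 66.8% ± 2.71, and Tnn from 4.63% ± 4.12 to 16.8% ± 5.48 and 29.45% ± 5.0. Tnr, the neural tenascin, averaged 0.0592%, 0.0447% and 0.0646%.

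Tnxb itself was at 1030, 573, 1132 and 842 CPM in No operation, at 337, 314, 418 and 211 in SHAM and at 5.77, 133, 137 and 132 in Laminectomy. The groups did not overlap, and Laminectomy mouse 1 fell far below the other 3. It was called lower in Laminectomy (log2 fold change -3.14 ± 0.70, adjusted p = 0.00243, edgeR) and not in SHAM (-1.48 ± 0.66, adjusted p = 0.0678) or between the operated groups (-1.65 ± 0.66, adjusted p = 0.25).

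Among the thrombospondins Thbs4 was the largest share in No operation, at 65.8% ± 6.40, with 43.5% ± 20.9 in SHAM and 52.3% ± 10.9 in Laminectomy. Thbs1 made up 9.50% ± 2.57, 24.0% ± 17.9 and 15.7% ± 4.28, the SHAM mean being carried by mouse 1 at 50.8% against 14.4% to 15.4% in the other 3. Without that mouse the difference from No operation was 5.51 percentage points for Thbs1 and -12.4 for Thbs4. Thbs2 made up 11.2% ± 1.51, 25.0% ± 6.48 and 20.3% ± 6.01, and Comp 11.2% ± 5.08, 2.33% ± 1.40 and 7.96% ± 2.5. In 14 of the 27 exact permutation tests on shares p was 0.0286, the smallest possible, and after Benjamini-Hochberg adjustment over the 27 the smallest value was 0.0551, so that none passed. With this floor, passing depended on how many of the tests reached it and not on the size of any 1 difference.

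**Figure D3:**
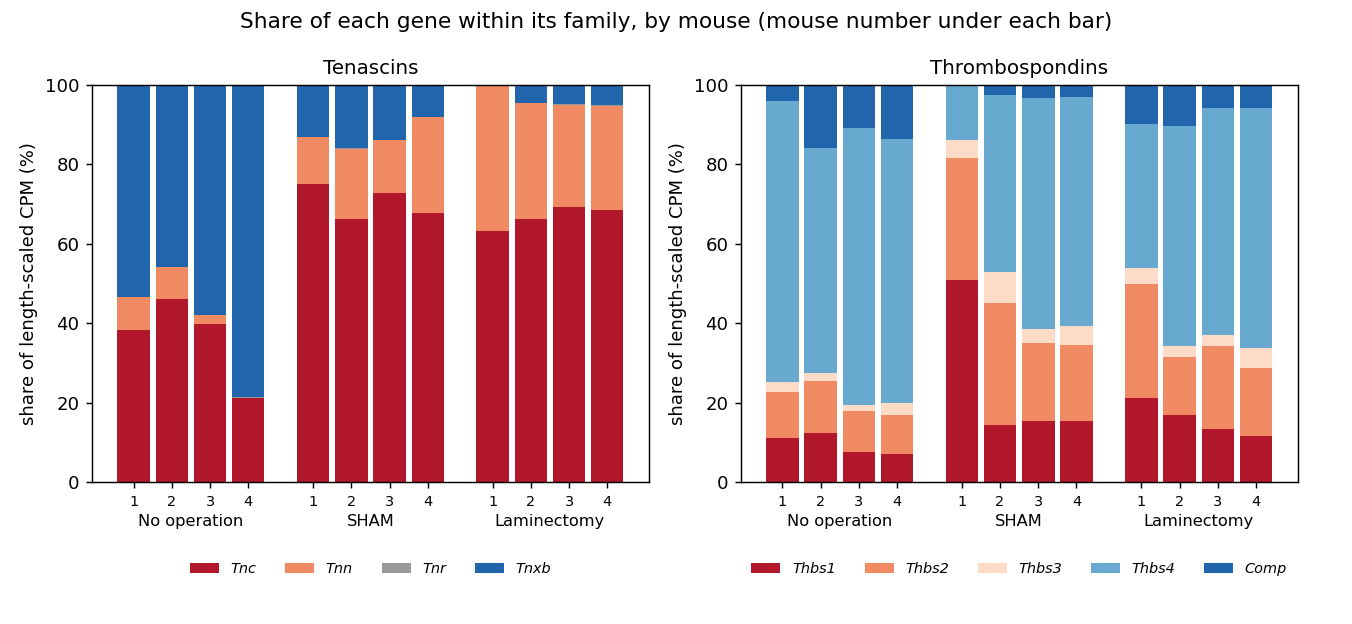
Share of each gene in the length-scaled CPM of its family (percent, axis from 0 to 100), as 1 stacked bar per mouse, for tenascins at left and thrombospondins at right. Tnxb takes 45.9% to 78.7% of the tenascins in No operation, 8.09% to 15.9% in SHAM and 0.141% to 5.17% in Laminectomy, and Thbs1 stands out in SHAM mouse 1 at 50.8%.

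Each gene was also set against the mean of the 7 fibroblast markers on the log2 scale, a mean that includes Dcn, which fell. By this measure Sparc differed from No operation by 0.02 in SHAM and 0.20 in Laminectomy, and Fn1 and Tnc differed by 0.24 and 0.47 in SHAM and by 0.98 and 0.99 in Laminectomy. Postn stood 2.25 and 2.85 higher relative to the markers, Cthrc1 2.52 and 2.73, and Tnn 2.59 and 4.04. With each mouse left out in turn, an alternative chosen after the data were seen, single No operation mice moved these 3: without mouse 1, Postn stood 2.99 and 3.58 higher, Cthrc1 3.34 and 3.54 and Tnn 3.30 and 4.75, and without mouse 4, in which Tnn had 4 counts, Tnn stood 1.13 and 2.58 higher. The thrombospondins had differences of -0.52 and -0.26 for Thbs1, -0.52 and -0.16 for Thbs2 and -0.54 and -0.35 for Thbs3. With 1 mouse left out Thbs1 ran from -0.80 to -0.20 in SHAM and from -0.40 to -0.02 in Laminectomy, and Thbs2 in Laminectomy turned to 0.03 without No operation mouse 3. Leaving out single No operation mice moved Sparc to between -0.08 and 0.17 in SHAM and between 0.10 and 0.35 in Laminectomy. It moved Fn1 to between 0.09 and 0.39 and Tnc to between 0.29 and 0.61 in SHAM, and Thbs3 to between -0.62 and -0.17 in Laminectomy. All 9 genes stood higher relative to the markers when the 3 collagen genes were left out of the list: Sparc then differed by 0.78 and 1.07, Fn1 by 1.00 and 1.85 and Tnc by 1.23 and 1.86, and the 3 thrombospondins turned to positive differences of 0.22 to 0.71. Relative to the macrophage markers instead, differences turned negative for Fn1 (-0.87) and Tnc (-0.64) in SHAM, and for Sparc in SHAM (-1.09) and Laminectomy (-0.58). Between Laminectomy and SHAM, Postn stood 0.59 and Tnn 1.44 higher by this measure without overlap of the groups, and the other genes overlapped. How often genes outside the 9 do so by this measure was not tested. None of the 27 exact permutation tests passed after adjustment, the smallest adjusted p being 0.129. As p could not fall below 0.0286, passing depended on how many tests reached that value and not on the size of any 1 difference.

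**Figure D4:**
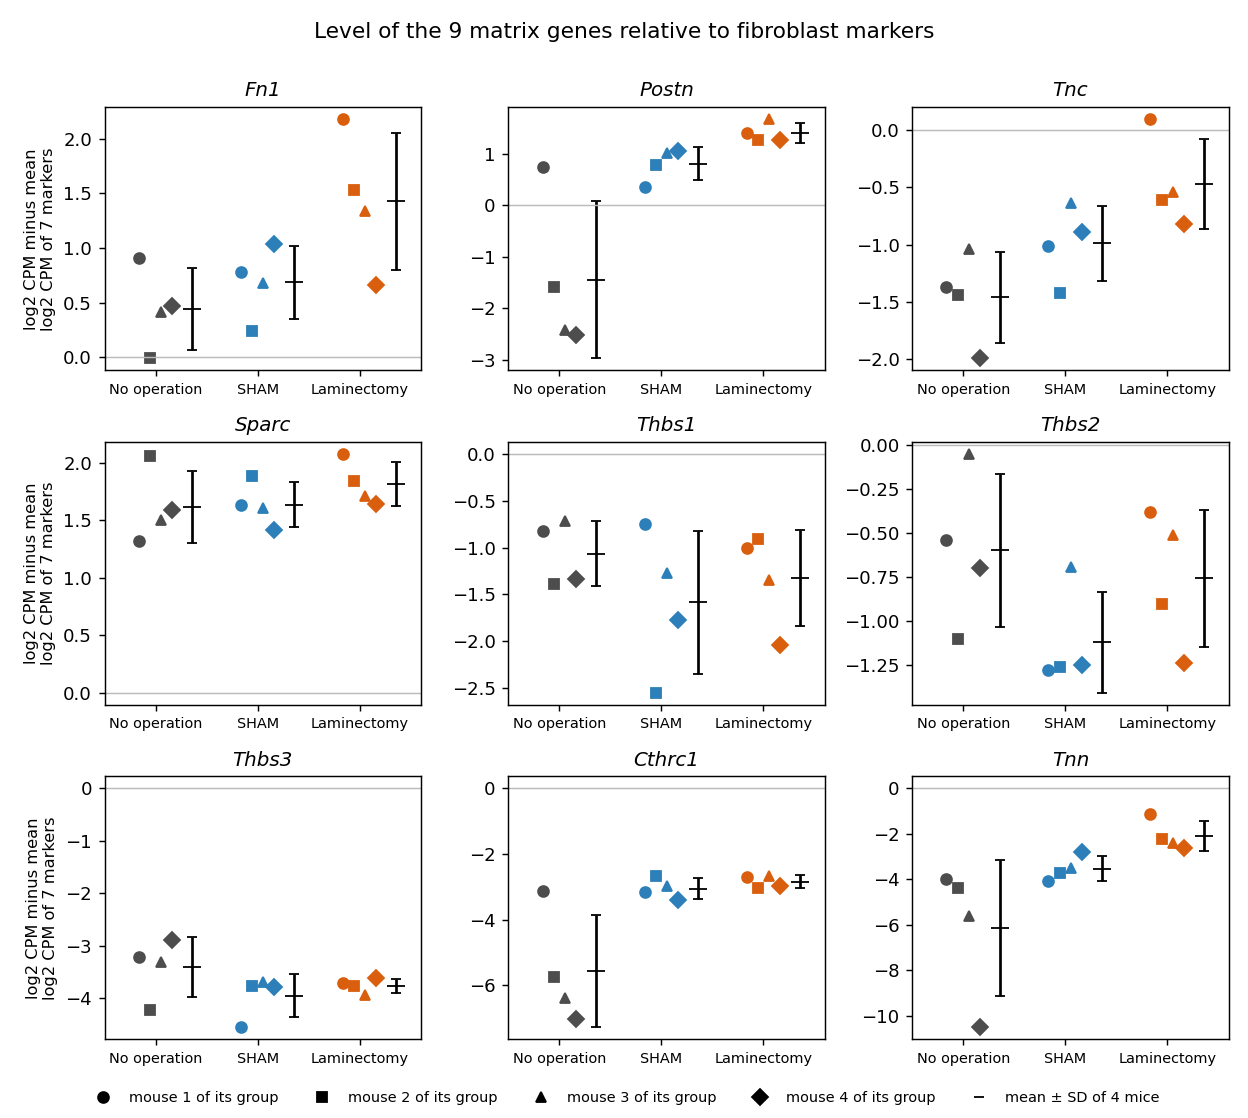
Log2 CPM of each gene minus the mean log2 CPM of 7 fibroblast markers (Pdgfra, Dcn, Lum, Thy1, Col1a1, Col1a2, Col3a1), by mouse, with the mean ± SD of 4 mice and a line at 0. Sparc lies between 1.32 and 2.08 in every mouse, while Postn goes from a mean of -1.45 in No operation to 0.81 in SHAM and 1.40 in Laminectomy.

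Within groups most pairs of the 9 genes varied in the same direction, to unequal degrees. Over deviations of log2 CPM from the group means in 12 mice, all from the same libraries, Pearson's r of the 36 pairs ran from -0.22 (Sparc and Thbs3) to 0.97 (Postn and Cthrc1), with a median of 0.54, and was above 0 in 35 pairs. Tnc and Tnn had an r of 0.87 and Tnc and Thbs2 one of 0.83. The 0.97 of Postn and Cthrc1 goes with No operation mouse 1, where both are high, and Spearman's rho for that pair was 0.68.

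Other genes with a like pattern were named by the highest r over the 12 mice, as a description. Over levels, Cthrc1 was closest to Lrrc15 (0.994), a surface protein of activated fibroblasts, and Postn to Runx1 (0.986), a transcription factor. Tnc was closest to Stt3a and Ccn4 (0.983 each), Sparc to E2f1 (0.987), Fn1 to Galnt7 (0.976) and Tnn to Cep55 (0.977), a protein of cell division. The thrombospondins had lower top values, with Golph3 for Thbs1 (0.923), Nucb2 for Thbs2 (0.928) and Zfp703 for Thbs3 (0.936). Over deviations from the group means, Lrrc15 led for both Cthrc1 (0.99, Spearman's rho 0.923) and Postn (0.978, rho 0.692), in each of which No operation mouse 1 stood far above its group, and Ccn4 led for Tnn (0.978).

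Relatives and partners of the 9 genes are given as counts, beside the shares of all genes tested that were called higher and lower (25.7% and 25.1% in SHAM, 24.2% and 24.4% in Laminectomy). Of 11 tested paralogues, 2 were higher and 5 lower in SHAM, and 2 higher and 2 lower in Laminectomy, so that the counts higher were below these shares. Tgfbi, the closest relative of Postn, rose in SHAM (0.96 ± 0.26, adjusted p = 0.00641, edgeR) and in Laminectomy (0.92 ± 0.26, adjusted p = 0.0087), as did Fstl1, of the SPARC family (1.81 and 1.34). Sparcl1, also of that family, fell in both (-1.20 and -0.97). Smoc1, Smoc2, Spock2 and Comp fell in SHAM, by 1.93, 0.93, 2.11 and 2.39 on the log2 scale, and did not pass in Laminectomy.

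Of the 8 other matricellular genes tested, 5 were higher and 1 lower in SHAM, and 2 higher and 1 lower in Laminectomy, so that the count higher in Laminectomy was near the share of all genes. Spp1, osteopontin, had the largest change in both (3.15 ± 0.80, adjusted p = 0.00511, and 3.68 ± 0.82, adjusted p = 0.00248, edgeR). Ccn4 followed at 1.98 and 2.37. Vitronectin (Vtn), a plasma and matrix adhesion protein, was lower at -1.71 and -1.25.

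Of the 16 receptors of these proteins tested, 9 were higher and 3 lower in SHAM, and 7 higher and 2 lower in Laminectomy, beside 25.7% and 24.2% of all genes higher. The heparan sulfate proteoglycan Sdc1 had the largest change in both groups (2.33 ± 0.29 and 2.28 ± 0.29, adjusted p = 5.23e-05 and 7.71e-05, edgeR). The fibronectin receptor subunit Itga5 rose by 1.61 and 1.60 on the log2 scale, Stab1, a scavenger receptor for SPARC, by 2.10 and 1.40, and the thrombospondin receptor Cd36 was lower at -0.84 and -1.44. Itgb6, an epithelial integrin subunit, fell by 2.12 in SHAM. In Laminectomy it was also below No operation, at 7.94 to 16.7 against 27.4 to 43.7 CPM.

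Of the 15 partners in processing and cross-linking, 10 were higher and 2 lower in SHAM and 10 were higher and 1 lower in Laminectomy, beside the same 25.7% and 24.2%. The membrane metalloproteinase Mmp14 rose by 2.74 ± 0.48 and 2.80 ± 0.48 (adjusted p = 0.000455 and 0.00046, edgeR) and the cross-linking enzyme Lox by 2.5 and 2.13. The protease Tll2 was lower in both operated groups, at counts of 10 to 28 in No operation, 0 to 2 in SHAM and 1 to 8 in Laminectomy.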

How the data were processed

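The submitters' processing notes name STAR 2.6.1b, featureCounts 2.0.1, DESeq2 1.30.1 and the build GRCm38 (mm10). RNA had been taken from the tissue samples also used for methylation, and stranded poly(A) libraries were read as paired ends of 100 bases. The deposited table holds estimated counts per gene: 10.22% of its values were not whole, though none of the 9 genes has such a value. They were rounded (by at most 0.5), as the design had assumed whole counts. All 12 mice were used. The study states 3 mice per group without naming them. Each sample was taken as 1 mouse, since the study counts mice; the labels only number the samples, so p-values measure the spread between them, which may be partly technical. Genes were filtered with filterByExpr and scaled by trimmed mean of M-values (factors 0.849 to 1.134), and edgeR 4.0.16 (R 4.3.3) fitted group over all 12 mice. CPM are counts per library size scaled by these factors, and log2 CPM use a prior count of 2. DEGs passed 0.05 in adjusted p and 0.5 in size of log2 fold change. DESeq2 1.42.0, limma 3.58.1, other scalings, filters, a replicate block and each mouse left out were alternatives. Lengths and positions came from GENCODE on GRCm38, upstream sequence from RefSeq. All 9 genes and the paralogues may be named, and of 3 further lists the 3 largest changes called. Members and lists were chosen with earlier results of these data known. Scripts were tested on simulated counts.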

Additional observations from a re-analysis of the deposited data

Results flagged for a closer look

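Among 60 sets of 4 mice (the 9 genes and their tested paralogues in each group), a lone mouse stood apart by Dixon's criterion, which divides the gap to the nearest mouse by the group's range, in 3, and chance alone flags about 1 in 20 sets. Postn in No operation mouse 1 was at 2053 CPM, against 329.7 in the next highest and 99.6 in the lowest mouse. Cthrc1 in the same mouse was at 139.5 CPM, against 18.4 and 4.28. Tnxb in Laminectomy mouse 1 was at 5.77 CPM, against 132 in the next lowest and 137 in the highest mouse.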

How the results depend on the processing

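The count of the 9 genes called higher ran from 5 to 9 in SHAM and from 5 to 8 in Laminectomy over all alternatives, and was 0 between the operated groups in each. Leaving out 1 mouse gave 5 to 7 and 6 to 8. Only the 2 groups compared gave 5 in SHAM, and a minimum of 10 counts in every mouse, which removes Tnn, gave 6 and 5. Same-numbered mice deviated together in some pairs only (r from -0.23 to 0.35), so numbers were not taken to pair mice: with the replicate block 7 genes were called in SHAM and 7 in Laminectomy, with Thbs2 gained in both and Thbs3 lost in SHAM. Thbs3 was the least stable call, lost in SHAM on leaving out any of 5 mice. Scaling by library totals moved the median of all genes by 0.26 in SHAM and 0.32 in Laminectomy, upper quartile scaling by 0.13 in Laminectomy. Library totals gave 5179 genes higher and 2671 lower in SHAM and 5456 and 2347 in Laminectomy, beside 3799 and 3703, and 3577 and 3605. Between the operated groups, values near 0 changed sign when 1 mouse was left out: Thbs1 ran from -0.42 to 0.24 (0.24 without SHAM mouse 1, also with No operation mouse 1 left out as well), Thbs2 from -0.0409 to 0.195 and Cthrc1 from -0.26 to 0.00209. Without length scaling the share of Tnc was 2.20 percentage points higher in Laminectomy than in SHAM. Relative to markers without collagens, Thbs1 was 0.24 and 0.61, Thbs2 0.24 and 0.71 and Thbs3 0.22 and 0.52 against No operation, and relative to macrophage markers Fn1 was -0.87 and Tnc -0.64 in SHAM and Sparc -1.09 and -0.58. Limma-voom gave log2 fold changes of 3.54 and 3.82 for Postn, 3.82 and 3.71 for Cthrc1 and 3.90 and 5.03 for Tnn, and the block 3.32 and 3.57 for Postn and 3.53 and 3.47 for Cthrc1. The cause of these changes was not tested. With 4 mice per group exact p-values cannot fall below 0.0286.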

Other observations

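The 9 genes together took 0.29% to 0.825% of all counts in the No operation mice, 1.84% to 1.99% in the SHAM mice and 1.93% to 2.34% in the Laminectomy mice, and the ranges of the operated groups stood above that of No operation. The level of Tnn per length ranked 6721 among 18331 genes in No operation, 1263 in SHAM and 464 in Laminectomy, and that of Fn1 ranked 351, 84 and 55.

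Other marker lists are given by their sums and calls, beside the shares of all genes called higher (25.7% in SHAM, 24.2% in Laminectomy) and lower (25.1% and 24.4%). The 4 adipocyte markers summed to 512 to 1230 CPM in No operation, 22.3 to 486 in SHAM and 3.23 to 90.1 in Laminectomy, with 3 of 4 called lower in SHAM and 4 of 4 in Laminectomy. The 5 tenocyte markers summed to 1380 to 5310, 90.9 to 548 and 455 to 829 CPM, with 4 called lower in SHAM and 2 in Laminectomy. The 5 chondrocyte markers summed to 13.2 to 248, 10.2 to 116 and 172 to 1030 CPM, with 1 called higher in SHAM and 2 in Laminectomy. Of the 4 myofibroblast markers, 1 was called higher in SHAM and 3 in Laminectomy; the chondrocyte and myofibroblast counts in SHAM were not above the share of all genes. Of the 5 endothelial markers, 3 were called lower in both. The calls are those of the edgeR fit, and the part of these lists in the values of the 9 genes was not tested.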
